A study of Mus musculus with 21 samples.

Results

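Bone marrow-derived macrophages of the mouse were given fatty acid early in culture and LPS (lipopolysaccharide of E. coli) days later, and their transcripts were compared with those of macrophages given LPS without fatty acid. The comparison rests on 6 of the 21 libraries of the series, chosen by their labels: 3 of fatty acid before LPS and 3 of LPS alone. All cultures came from chow-fed C57Bl6/J donors aged 24 weeks and were grown in RPMI-1640 with 10% FCS and 30% supernatant of L929 fibroblasts, which supplies macrophage colony-stimulating factor. The pretreated cultures had 10 mM fatty acid, palmitic to oleic acid at 1:3, for the first 4 days. They were then washed in PBS and kept without it until day 7, when both groups received 100 ng/ml LPS for 24 h. Levels of the other groups of the same table, untreated macrophages and macrophages given fatty acid with 200 nM TAK242 (an inhibitor of the LPS receptor TLR4) before LPS, are set beside these (n = 3 each). No group had fatty acid without LPS, so a change of the LPS response cannot be told apart from a change that fatty acid makes without LPS. The labels number the replicates without saying whether a number is an animal or a culture, so the p-values measure the spread between these samples, which may be technical.

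LPS is bound by the serum protein LBP, passed on by CD14 and recognised by TLR4 with its partner MD-2. TLR4 then signals through the adaptor MyD88 to NF-kB and AP-1, which switch on cytokine and chemokine genes, and through the adaptor TRIF to interferon beta, which acts back on the cell through its receptor and STAT factors and switches on interferon-stimulated genes. Macrophages store fatty acids as triglyceride in lipid droplets or burn them in mitochondria, and export cholesterol under the control of the nuclear receptor LXR.

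The deposited values behave like FPKM, fragments scaled by gene length and library depth, though no source names the unit. They are called deposited values here, and the read depth is unknown. Library sums lay between 321532 and 386023, and 9226 to 10145 genes reached a value of 1. Of 10476 genes tested, 3893 changed (37.2%), 2286 higher with fatty acid (21.8%) and 1607 lower (15.3%), at an adjusted p under 0.05. By at least 2-fold, 303 genes were higher (2.89%) and 295 lower (2.82%). The fatty acid and LPS libraries did not overlap in 5369 genes (51.3%), and 2470 calls (23.6% of genes) held whichever of the 6 libraries was left out. The median log2 change of all genes was 0.06. Each count of list members below is to be read beside the shares of all genes, 21.8% higher and 15.3% lower. A count near these shares does not set a list apart. Changes below are log2 changes of value + 1, fatty acid minus LPS alone, with standard errors (SE), and p-values are adjusted over all genes. Values are listed in the order of replicates 1, 2 and 3. Of the 541 genes named in full by the lists and by size of change, 290 were called. In 288 of these the 3 fatty acid libraries lay wholly above or below the 3 LPS libraries, and the others are Ifi205 and Nfkbie. The 15 largest rises and 15 largest falls among them were picked for not overlapping. A call with 3 libraries in each group already favours such a separation, so the 288 are no added support for the calls. Where a call is said to hold in a number of alternative settings, these are no filter, a minimum of 5, a pseudocount of 0.1, median-ratio scaling, a fit of the 6 libraries alone, library weights and each of the 6 libraries left out, as far as the gene was tested in them.

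LPS replicate 1 stood apart from the other LPS libraries. On the second principal component, which held 15.3% of the variance, the LPS libraries lay at 51.4, 24.9 and 11.1, the fatty acid libraries at -24.1, -25.9 and -27.4, and those with TAK242 between -9.13 and 3.03. The 3 LPS libraries therefore formed a series, with replicate 1 farthest from the fatty acid libraries and replicate 3 nearest. Of the 295 genes lower by at least 2-fold, replicate 1 was the highest LPS library in 234 and replicate 3 the lowest in 243. Of the 303 genes higher by at least 2-fold, replicate 1 was the lowest in 275 and replicate 3 the highest in 266. The spread within groups followed this: the median SD of a gene over replicates on the log2 scale was 0.16 in the LPS group and 0.11 in the fatty acid group. Without LPS replicate 1, 3358 genes changed, 1915 higher (18.3%) and 1443 lower (13.8%). The genes called at least 2-fold then numbered 380 in place of 598. Of the 598, 569 were still called in the same direction and 0 changed sign. The 598 were called with this library in the fit. Where the groups do not overlap, leaving out a library cannot turn the sign, so the 0 does not test the direction. Among genes not called the sign could turn, as for S100a9 from 0.07 to -0.77. The size of many changes depended on this library.

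**Figure D1:**
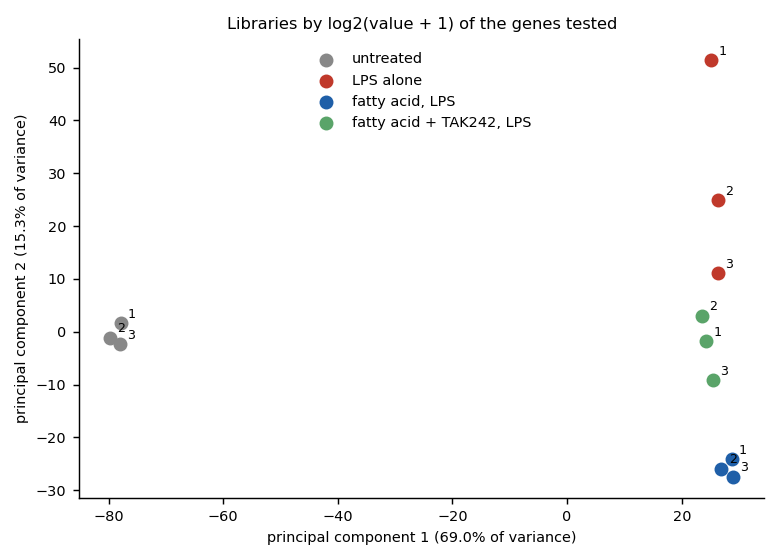
Each of the 12 libraries of the table by its first and second principal component of log2(value + 1), labelled by replicate number and coloured by group. Untreated libraries lie apart on the first component (69.0% of the variance), and the second (15.3%) spreads the LPS libraries from 11.1 to 51.4 above the fatty acid libraries near -26.

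**Figure D2:**
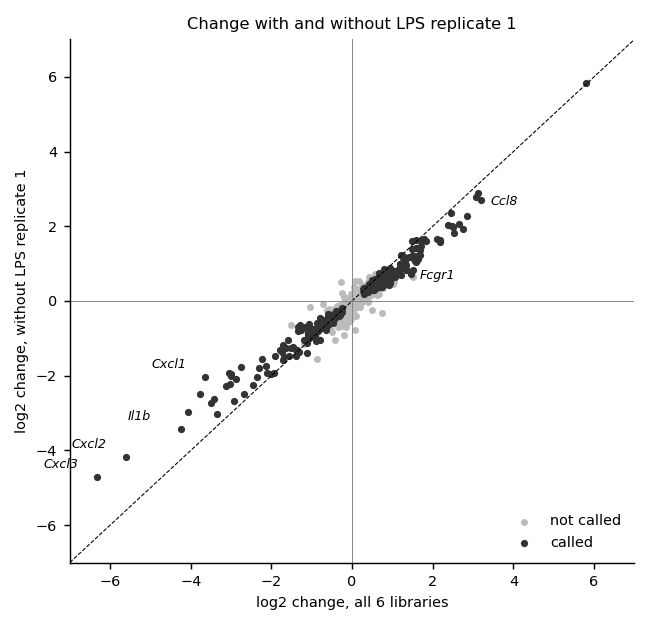
Log2 change (fatty acid minus LPS alone) of the 541 named genes, with all 6 libraries on the x axis and without LPS replicate 1 on the y axis; dark points are called genes and the dashed line marks equal values. Of the 290 called genes 253 lie nearer to 0 on the y axis, as Cxcl1 does at -2.04 against -3.64. Among them 0 change sign, which was fixed in advance for those whose groups do not overlap.

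Chemokine genes that attract neutrophils fell furthest. The list of neutrophil-attracting CXC chemokines also holds Pf4, which is not counted here as a neutrophil attractant. Of its 5 tested members 4 fell, Pf4 among them, and 0 rose, against 15.3% of all genes lower. The median log2 change was -3.64 (-2.49 without LPS replicate 1). Cxcl5 was under the filter, at 22.8, 0.644 and 0.0196 with LPS and 0.0164, 0.0160 and 0.0172 with fatty acid. In a bulk culture a lower value can mean less RNA per cell or fewer cells of the kind that makes it, and these cannot be told apart. Cxcl2, a ligand of the receptor CXCR2, stood at 1574, 134 and 46.3 with LPS alone and at 4.75, 3.35 and 2.49 with fatty acid, against 2.02, 2.01 and 1.33 in untreated cells (-5.60, SE 0.96, adjusted p = 0.00194). Its fatty acid libraries lay just above the untreated ones and below every LPS library. Cxcl3, a close relative, stood at 1531, 102 and 28.2 with LPS and 1.11, 1.13 and 1.02 with fatty acid (-6.32). Cxcl1, the third of these neighbours, was at 117, 5.73 and 1.66 with LPS and 0.0585, 0.0144 and 0.0163 with fatty acid (-3.64, adjusted p = 0.0175). For all of them LPS replicate 1 lay more than 10-fold above the other LPS libraries. Their groups did not overlap, which was a condition for naming them among the largest falls. Without it the change of Cxcl1 was -2.04. Its call was lost with no filter on low values (adjusted p = 0.0568) and in a fit of the 6 libraries alone (adjusted p = 0.0831).

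Pf4, which encodes platelet factor 4, another CXC chemokine of the same stretch of chromosome 5 (chr5:90772435-90773383, GRCm38), showed the tightest fall of the family. It stood at 2387, 1644 and 1568 with LPS, 336, 273.7 and 252 with fatty acid and 1106, 816 and 1063 without treatment (-2.68, SE 0.18, adjusted p = 3.31e-05). The fatty acid libraries lay below the untreated as well as the LPS libraries, unlike those of Cxcl2, and those with TAK242 at 866, 984 and 995 lay close to the untreated level. Ppbp, the pro-platelet basic protein gene, did not pass (9.93, 0.988 and 0.489 with LPS and 0.503, 0.422 and 0.686 with fatty acid, adjusted p = 0.164; called without LPS replicate 3, adjusted p = 0.0363).

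The promoters of Cxcl1, Cxcl2, Cxcl3 and Il6 are shown because they are the 4 promoter matches to the NF-kB consensus among 14 of the 15 named falls with a RefSeq promoter. Each is given from 250 bases before to 50 after the annotated start, on the gene's strand, from RefSeq (GRCm38.p6), with the consensus match in capitals. Cxcl1 lies at chr5:90890995-90891294, Cxcl2 at chr5:90903649-90903948, Cxcl3 at chr5:90785851-90786150 and Il6 at chr5:30012864-30013163, all on the plus strand.
Cxcl1: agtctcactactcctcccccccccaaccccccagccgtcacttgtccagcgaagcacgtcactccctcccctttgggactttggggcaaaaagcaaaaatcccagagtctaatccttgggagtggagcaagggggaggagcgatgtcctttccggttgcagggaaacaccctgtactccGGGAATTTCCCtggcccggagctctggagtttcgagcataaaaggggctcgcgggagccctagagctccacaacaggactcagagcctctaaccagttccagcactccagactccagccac
Cxcl2: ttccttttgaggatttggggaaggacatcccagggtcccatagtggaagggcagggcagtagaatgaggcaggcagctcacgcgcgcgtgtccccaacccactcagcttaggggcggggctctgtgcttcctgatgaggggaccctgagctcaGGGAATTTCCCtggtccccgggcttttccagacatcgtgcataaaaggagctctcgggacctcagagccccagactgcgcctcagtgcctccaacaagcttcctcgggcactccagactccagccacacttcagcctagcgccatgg
Cxcl3: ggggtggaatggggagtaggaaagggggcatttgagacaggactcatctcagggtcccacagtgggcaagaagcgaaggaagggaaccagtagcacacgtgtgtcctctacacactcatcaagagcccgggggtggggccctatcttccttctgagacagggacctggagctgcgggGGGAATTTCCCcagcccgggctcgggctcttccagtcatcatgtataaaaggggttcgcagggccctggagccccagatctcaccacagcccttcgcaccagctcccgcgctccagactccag
Il6: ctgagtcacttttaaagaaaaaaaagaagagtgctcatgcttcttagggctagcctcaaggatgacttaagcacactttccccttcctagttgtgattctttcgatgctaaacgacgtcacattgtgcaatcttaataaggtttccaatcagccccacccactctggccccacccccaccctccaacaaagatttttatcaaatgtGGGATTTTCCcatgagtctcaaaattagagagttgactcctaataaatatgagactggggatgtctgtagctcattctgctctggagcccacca
The 3 chemokine promoters hold the same run of 11 letters, 2 overlapping matches of the consensus on opposite strands, whose first base lies at -71 in Cxcl1, -97 in Cxcl2 and -73 in Cxcl3 relative to the start. The match of Il6 begins at -44. Both strands were searched, and 4.51% of all 32851 RefSeq promoters of this length hold the consensus. A match describes letters and is not a measured site.

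Among chemokines of monocytes and T cells the picture was split. Of 8 tested CC chemokines that attract monocytes, 3 fell and 2 rose, and of 4 interferon-inducible chemokines 2 rose and 0 fell. Of all genes 21.8% were higher and 15.3% lower. Ccl3, which encodes MIP-1 alpha, stood at 1434, 373 and 203.8 with LPS and 72.5, 61.4 and 59.7 with fatty acid (-2.88, SE 0.54, adjusted p = 0.00287), close to the 53.8, 55.1 and 48.3 of untreated cells. Ccl9 fell less and more evenly, from 191, 187 and 157 to 102, 98.9 and 94.2 (-0.85, adjusted p = 0.000483). Ccl4, the MIP-1 beta gene, fell too (-0.87, adjusted p = 0.0152), a call lost in a fit of the 6 libraries alone or without fatty acid replicate 2 or 3 (adjusted p from 0.0511 to 0.0596).

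Ccl8, another CC chemokine gene, rose the most of all chemokines tested, from 0.990, 2.82 and 7.35 with LPS to 36.3, 33.9 and 37.5 with fatty acid (3.21, SE 0.41, adjusted p = 0.000556). Cxcl11, of the interferon-inducible list, stood at 0.254, 0.731 and 2.83 with LPS and 12.1, 9.13 and 7.95 with fatty acid (2.39, adjusted p = 0.00132). Cxcl10, which encodes a ligand of CXCR3 on T cells, stood at 24.1, 58.5 and 92.8 with LPS and 187, 147 and 132 with fatty acid (1.58, and 1.05 without LPS replicate 1). In each the fatty acid libraries lay close together above the LPS libraries, whose replicate 1 was lowest. Ccl6 rose as well (0.93, adjusted p = 0.0289; 0.52 without LPS replicate 1), a call that held in 6 of 12 alternative settings, adjusted p up to 0.106. Ccl2, the main attractant of monocytes, lay at 210.4, 574 and 734 with LPS and 471, 398 and 343 with fatty acid and did not pass (adjusted p = 0.776; -0.69 and adjusted p = 0.0348 without LPS replicate 1). Neither did its neighbours Ccl7 (0.50, adjusted p = 0.441) and Ccl12 (1.51, adjusted p = 0.0591; 2.19 and adjusted p = 0.00466 without LPS replicate 3), nor Ccl5 (0.01) or Cxcl9 (0.23).

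**Figure D3:**
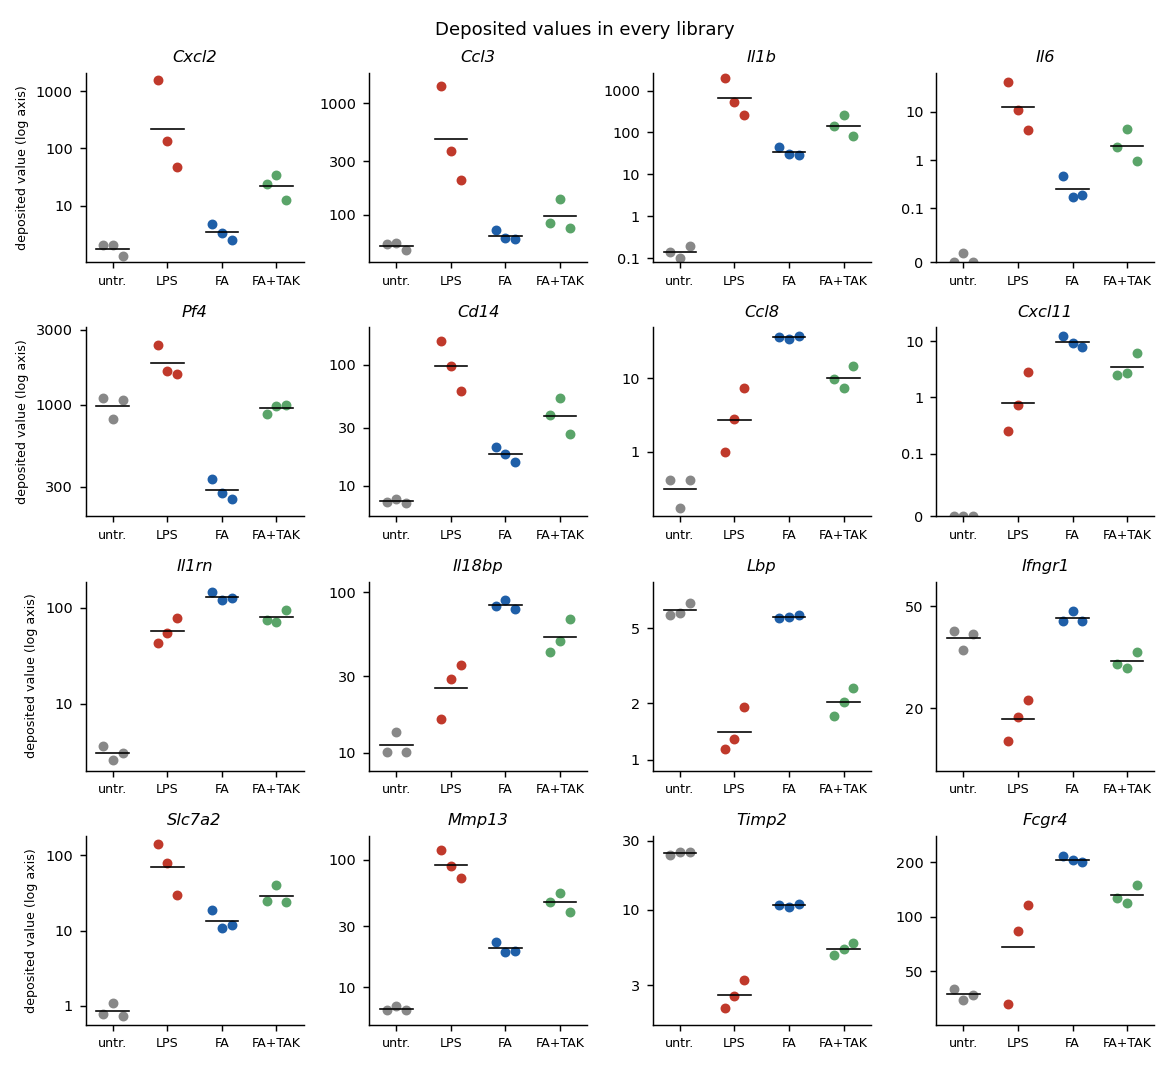
Deposited value of 16 genes in each of the 12 libraries (log axis; linear below 0.1 for Il6 and Cxcl11, which have values of 0), by group: untreated, LPS alone, fatty acid before LPS (FA) and fatty acid with TAK242 before LPS (FA+TAK). Points are libraries and bars geometric means, left out where a value is 0. All 16 are called genes, and those from the largest rises and falls were picked for not overlapping. In every panel the 3 FA points lie wholly above or below the 3 LPS points, as for Ccl8 at 36.3, 33.9 and 37.5 against 0.990, 2.82 and 7.35.

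The genes of both interleukin 1 ligands fell, while those of the antagonists of interleukins 1 and 18 rose. Of 12 members of the family and its inflammasomes tested, 7 rose and 3 fell. Il1b stood at 1987, 543 and 262 with LPS and 45.1, 30.7 and 28.2 with fatty acid (-4.23, SE 0.62), and Il1a, the other interleukin 1 ligand, at 558, 159 and 84.5 with LPS and 20.5, 15.8 and 14.01 with fatty acid (-3.49, SE 0.55, adjusted p = 0.00135). Neither returned to the untreated level, 0.142, 0.103 and 0.193 for Il1b and 1.96, 1.55 and 2.43 for Il1a. Nlrp3, the sensor of the inflammasome that cleaves interleukin 1 beta, fell from 49.6, 18.4 and 13.8 to 8.04, 7.31 and 6.29 (-1.58, adjusted p = 0.00595).

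Il1rn, which encodes the interleukin 1 receptor antagonist, moved the other way, from 43.0, 55.2 and 77.9 to 145, 119.7 and 127 (1.18, SE 0.20, adjusted p = 0.00165). Il18bp, whose product binds and blocks interleukin 18, rose from 16.1, 28.6 and 35.1 to 82.7, 89.8 and 78.98 (1.68, adjusted p = 0.00107), although it overlaps Numa1 and reads of the pair cannot be told apart without strand. Il18 itself also rose, from 10.1, 22.5 and 28.2 to 53.3, 45.97 and 45.8 (1.32, adjusted p = 0.00414). Among the cleaving machinery, Casp1 rose by 0.62 (adjusted p = 0.00288), the DNA sensor gene Aim2 by 0.67 (adjusted p = 0.00522), Casp4, whose product senses cytosolic LPS, by 0.42 (adjusted p = 0.0152, and 0.0501 without fatty acid replicate 1) and Gsdmd, which encodes the pore-forming gasdermin D, by 0.72 (0.46 without LPS replicate 1; adjusted p = 0.0611 in a fit of the 6 libraries alone). The ratio of Il1rn to Il1b, both read in the same library, lay at 0.0216, 0.102 and 0.297 in the LPS libraries and at 3.21, 3.89 and 4.49 in the fatty acid libraries.

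Other cytokine genes fell or did not pass, and 0 of the 9 tested rose (5 lower; median log2 change -1.71). Il6 stood at 40.3, 10.99 and 4.11 with LPS and at 0.471, 0.170 and 0.191 with fatty acid (-3.42, SE 0.60, adjusted p = 0.00215). Csf3, the granulocyte colony-stimulating factor gene, went from 27.9, 8.37 and 2.34 to 0.259, 0.0874 and 0.235 (-3.02, adjusted p = 0.00294). Tnf stood at 101.1, 38.97 and 27.3 with LPS and 17.9, 12.9 and 11.5 with fatty acid (-1.71, adjusted p = 0.00665). Il12b, which encodes the p40 chain shared by interleukins 12 and 23, was the steadiest of these across LPS libraries, at 3.52, 3.36 and 1.801 against 0.211, 0.179 and 0.114 (-1.71, SE 0.17, adjusted p = 0.000207). Il12a, the p35 chain, fell as well (-2.76, and -1.78 without LPS replicate 1; adjusted p = 0.0556 in a fit of the 6 libraries alone). The anti-inflammatory cytokine gene Il10 lay at 12.9, 10.2 and 8.01 with LPS and 11.98, 9.13 and 9.38 with fatty acid, and its difference was -0.01 (SE 0.16).

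In the LPS receptor complex Cd14 fell while Tlr4, Ly96 and Lbp rose. Of 15 members of the TLR4 list tested, 5 rose and 2 fell. Cd14 fell from 157, 98.2 and 60.03 to 21.002, 18.1 and 15.6 (-2.37, SE 0.31, adjusted p = 0.000598). Tlr4 stood higher with fatty acid, at 2.70, 2.74 and 2.98 against 1.70, 1.52 and 1.94 (0.48, adjusted p = 0.00148), and so did Ly96, which encodes MD-2, at 48.1, 46.5 and 49.3 against 36.8, 32.4 and 36.7 (0.43, adjusted p = 0.00391). Lbp came to just under the untreated range, with 5.89, 6.01 and 6.84 untreated, 1.14, 1.28 and 1.91 with LPS and 5.69, 5.75 and 5.86 with fatty acid (1.48, SE 0.12, adjusted p = 9.28e-05).

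Cd180 and Ly86 encode a receptor pair related to TLR4 and MD-2 that modulates LPS signalling. Cd180 rose from 7.62, 7.28 and 10.3 to 22.4, 23.2 and 18.2 (1.25, adjusted p = 0.0029) and Ly86 from 17.99, 41.8 and 57.8 to 111, 114 and 98.2 (1.58, adjusted p = 0.00375). Downstream, the kinase gene Irak2 fell from 18.8, 16.3 and 12.01 to 9.17, 7.50 and 7.36 (-0.87, adjusted p = 0.00191). Irak1 (-0.05) and Traf6 (0.21, adjusted p = 0.0557) did not pass. Neither did Myd88 (0.25), Irak4 (0.36) and the inhibitory kinase gene Irak3 (-0.42), but Myd88 was called without LPS replicate 3 (adjusted p = 0.0357), Irak4 in a fit of the 6 libraries alone (adjusted p = 0.0486) and Irak3, lower, without fatty acid replicate 1 or with median-ratio scaling (adjusted p = 0.0423 and 0.0499). Among other Toll-like receptors, 4 of 7 rose and 1 fell: Tlr2, which senses bacterial lipoproteins, fell from 8.77, 5.90 and 4.59 to 2.94, 3.02 and 2.24 (-0.96, adjusted p = 0.00433), while Tlr13, a sensor of bacterial ribosomal RNA, rose from 6.43, 5.73 and 7.12 to 10.9, 11.3 and 10.6 (0.69, adjusted p = 0.0008). Of the other rises, that of Tlr7 (0.81) held in 11 of 12 alternative settings, adjusted p up to 0.0523, that of Tlr3 (0.74) held in 7 of 11 alternative settings, adjusted p up to 0.0628 and that of Tlr1 (0.29; 0.18 without LPS replicate 1) held in 4 of 12 alternative settings, adjusted p up to 0.125. Without LPS replicate 1 the list had 2 rises.

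**Figure D4:**
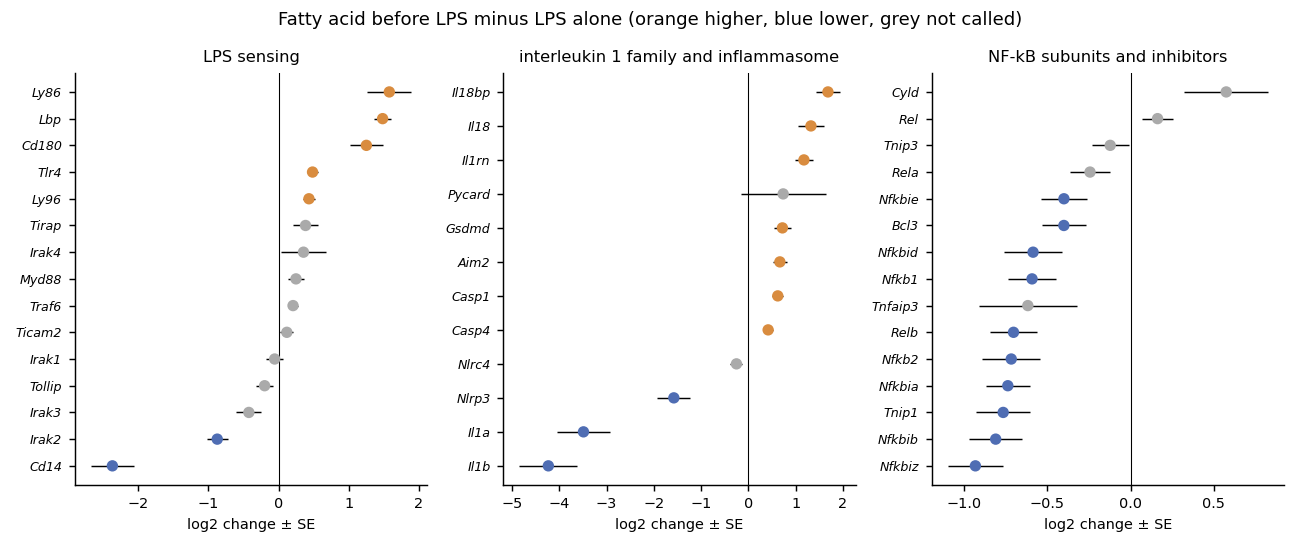
Log2 change (fatty acid minus LPS alone, x axis) with its standard error for each tested gene of the LPS-sensing, interleukin 1 and NF-kB lists; orange marks called higher, blue called lower and grey not called. Cd14 (-2.37) lies opposite to Lbp (1.48), and Il1b (-4.23) opposite to Il18bp (1.68).

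Genes of the NF-kB pathway, many of them its own targets, were lower with fatty acid: of 15 tested, 10 fell and 0 rose, against 15.3% of all genes lower. The median log2 change was -0.59, and -0.39 without LPS replicate 1. Nfkbiz, which encodes the nuclear inhibitor-related protein needed for late LPS targets such as Il6, fell from 20.5, 16.2 and 12.1 to 7.90, 7.91 and 7.77 (-0.93, SE 0.17, adjusted p = 0.00231). Nfkbia, the inhibitor gene NF-kB itself induces, fell from 179, 185 and 158 to 125, 99.2 and 89.6 (-0.74, adjusted p = 0.00247). Of the subunits, Relb (-0.70), Nfkb2 (-0.72) and Nfkb1 (-0.59) fell, while Rela (-0.24, adjusted p = 0.126) and Rel (0.16, adjusted p = 0.188) did not pass. With median-ratio scaling Rela was called lower (adjusted p = 0.0438), and without LPS replicate 1 Rel was called higher (adjusted p = 0.0312) and the list had 8 falls. Nfkbiz, Nfkbia, Relb, Nfkb2 and Nfkb1 stayed above their untreated levels in every fatty acid library, Nfkbia for example against 24.4, 22.98 and 21.6 untreated. The call of Nfkbie held in 5 of 12 alternative settings, adjusted p up to 0.138, that of Bcl3 held in 6 of 12 alternative settings, adjusted p up to 0.136 and that of Nfkbid (-0.59; -0.34 without LPS replicate 1) held in 6 of 11 alternative settings, adjusted p up to 0.0851. In RefSeq 12 of the 15 have a promoter entry, and 10 of these hold the consensus described above.

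Genes that restrain cytokine production were among the early-response genes that rose. Of 7 early-response genes tested, 3 rose and 1 fell. Zfp36, which encodes tristetraprolin, a protein that destabilises cytokine messages, rose from 2.04, 1.66 and 2.20 to 6.38, 5.35 and 5.78 (1.21, SE 0.12, adjusted p = 0.000207). Dusp1, a phosphatase gene that shuts off MAP kinases, rose from 14.9, 11.8 and 11.97 to 24.5, 19.4 and 18.9 (0.66, adjusted p = 0.00405). Ier3, an immediate early gene induced by NF-kB, fell from 20.2, 16.3 and 10.03 to 2.91, 1.90 and 1.19 (-2.45, adjusted p = 0.000226), on both sides of the untreated range (2.28, 2.50 and 2.20). Zfp36 overlaps Gm44710 and Dusp1 overlaps Ergic1, whose reads cannot be told apart without strand.

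Interferon-stimulated genes moved up together. Of 23 antiviral effectors tested 15 rose and 0 fell (median log2 change 0.94), and of 15 guanylate-binding proteins and IRG GTPases, which attack vacuoles of pathogens, 13 rose and 0 fell (1.24). Of 12 genes listed for sensing of cytosolic nucleic acid, which include adaptors and enzymes beside sensors, 10 rose and 0 fell (0.70). Without LPS replicate 1 the rises were 14, 13 and 10. Rsad2, which encodes the antiviral enzyme viperin, stood at 12.3, 26.9 and 53.2 with LPS and 182, 145 and 136 with fatty acid (2.51, SE 0.41, adjusted p = 0.00163). Slfn4, a Schlafen gene of activated myeloid cells, stood at 3.15, 15.97 and 32.3 with LPS and 94.7, 82.9 and 89.6 with fatty acid (2.76, adjusted p = 0.00444). Mx1, a gene of the antiviral list, was at 11.2, 31.1 and 52.9 with LPS and 159, 139 and 227 with fatty acid (2.64). These are RNA values, and whether a working protein is made was not tested. In these genes LPS replicate 3 was the highest of the LPS libraries. It lay below every fatty acid library, which was a condition for naming them among the largest rises.

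Gbp2 stood at 70.1, 114 and 147 with LPS and 291, 262 and 246 with fatty acid (1.32, SE 0.22, adjusted p = 0.00167), and Gbp5, which promotes inflammasome assembly, at 14.02, 22.5 and 29.4 with LPS and 60.6, 50.03 and 43.95 with fatty acid (1.24, adjusted p = 0.00215). Tgtp1, an IRG gene, stood at 0.469, 1.28 and 1.97 with LPS and 26.9, 6.33 and 27.7 with fatty acid (3.07), but Tgtp1 and Tgtp2 are near-identical copies between which the counting could split reads. The same holds for Gbp4, Gbp8 and Gbp9, which overlap each other. Samhd1, whose product limits the nucleotide pool open to viruses, rose from 72.3, 147 and 177 to 349.8, 396 and 376 (1.59, adjusted p = 0.0015), and the DNA sensor gene Ifi207 from 20.4, 23.3 and 35.1 to 76.8, 77.6 and 81.2 (1.58, adjusted p = 0.000576). Not all of the family moved: Oas1a (0.24), Oasl1 (-0.17), Oasl2 (-0.14), Bst2 (0.30) and Irgm1 (0.04) did not pass, with adjusted p from 0.255 to 0.938. Nor were the DNA sensor gene Cgas and the nuclease gene Trex1 called in any alternative setting, adjusted p up to 0.275 and 0.855. Isg15, at 117, 245 and 341 with LPS and 402, 366 and 338 with fatty acid, did not pass either (adjusted p = 0.0615; 1.11 and adjusted p = 0.00669 without LPS replicate 3).

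For the rises, the promoters shown are those of Rsad2 and Tgtp1, which with Tgtp2 are the matches to the interferon-stimulated response element, GAAA repeated after any 2 bases, among 12 of the 15 named rises with a RefSeq promoter. Rsad2 lies at chr12:26456403-26456702 and Tgtp1 at chr11:48992197-48992496, both on the minus strand (GRCm38.p6), printed on the gene's strand with the match on either strand in capitals.
Rsad2: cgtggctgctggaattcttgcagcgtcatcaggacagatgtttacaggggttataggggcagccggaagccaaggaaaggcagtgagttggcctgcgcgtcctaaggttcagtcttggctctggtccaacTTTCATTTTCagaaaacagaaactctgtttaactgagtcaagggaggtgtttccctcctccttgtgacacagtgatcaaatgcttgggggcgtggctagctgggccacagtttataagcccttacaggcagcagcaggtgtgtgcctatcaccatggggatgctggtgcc
Tgtp1: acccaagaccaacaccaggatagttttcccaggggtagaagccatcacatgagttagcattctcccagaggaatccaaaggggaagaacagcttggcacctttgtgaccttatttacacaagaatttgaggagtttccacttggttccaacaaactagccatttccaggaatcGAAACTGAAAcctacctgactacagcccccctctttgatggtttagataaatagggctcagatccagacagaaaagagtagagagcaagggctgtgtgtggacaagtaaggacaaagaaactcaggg
The match begins at -120 in Rsad2 and -77 in Tgtp1 relative to the start, and 3.44% of all RefSeq promoters of this length hold one. No share is given for the interferon lists themselves, since under 80% of their members have a promoter entry.

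Among the transcription factor genes of the IRF and STAT families 4 of 13 rose and 0 fell, beside 21.8% of all genes higher. Without LPS replicate 1 the rises numbered 3, and 2 calls held whichever library was left out. Their part in the rises above was not tested. Irf2 rose from 13.6, 13.4 and 18.7 to 28.04, 24.3 and 27.9 (0.78, adjusted p = 0.00134). Stat2, at 21.8, 40.3 and 53.7 with LPS and 77.5, 72.0 and 69.1 with fatty acid, rose too, but its change went from 0.99 to 0.63 without LPS replicate 1. Its call was lost in a fit of the 6 libraries alone (adjusted p = 0.057). The call of Irf1 (0.94) was lost without LPS replicate 1 (adjusted p = 0.0597) and held in 8 of 12 alternative settings, adjusted p up to 0.0597. Irf7 (0.61, adjusted p = 0.0777; 0.93 and adjusted p = 0.00452 without LPS replicate 3), Irf3 (0.09), Irf8 (0.02) and Irf9 (0.14) did not pass.

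Chains of the receptors for interferon gamma and for interleukins 4, 6 and 10 rose, though not every chain. Of 11 genes of the receptor and SOCS list tested, 6 rose and 2 fell (1 without LPS replicate 1). Ifngr1, the ligand-binding chain of the interferon gamma receptor, stood at 40.04, 33.6 and 39.1 untreated, 14.8, 18.4 and 21.6 with LPS and 43.7, 48.1 and 43.8 with fatty acid (1.27, SE 0.13, adjusted p = 0.000213). Il4ra, the chain shared by the receptors of interleukins 4 and 13, rose from 14.2, 18.7 and 26.6 to 60.05, 58.8 and 65.3 (1.63, adjusted p = 0.000418), above the untreated 11.8, 12.6 and 11.8. Il10ra (0.67), Il10rb (0.55), Il6ra (0.55) and Ifnar1 (0.47) rose with adjusted p from 0.00173 to 0.00657. Ifngr2, the other chain of the interferon gamma receptor, did not pass (0.05, adjusted p = 0.658). Socs3, the feedback inhibitor of signalling by interleukin 6, fell from 1.66, 1.87 and 1.48 to 0.434, 0.201 and 0.0846 (-1.11, adjusted p = 0.000315).

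Most antigen-presentation genes did not pass. Of 17 class I genes 4 rose and 1 fell, beside 21.8% of all genes higher and 15.3% lower. Among the rises was B2m, the light chain of class I molecules, from 1964, 2843 and 3326 to 4791, 4577 and 4395 (0.79, adjusted p = 0.00391). In class II, H2-Ab1 fell from 20.6, 26.5 and 22.9 to 10.6, 8.18 and 6.22 (-1.40, SE 0.17, adjusted p = 0.000441) with 1 rise, H2-DMa (0.74; 0.39 and adjusted p = 0.0648 without LPS replicate 1), a call that held in 5 of 12 alternative settings, adjusted p up to 0.119. Without LPS replicate 1 the class II list had 4 falls and 0 rises of 7 tested, H2-Aa (-0.67, adjusted p = 0.00105), H2-Eb1 (-0.69, adjusted p = 0.00363) and Cd74 (-0.57, adjusted p = 0.0121) passing as well. Of 8 costimulatory and checkpoint genes 2 rose: Cd86, a ligand of CD28, from 3.68, 5.47 and 6.93 to 13.6, 12.8 and 13.3 (1.19, adjusted p = 0.000861), and Cd274, which encodes PD-L1, from 46.98, 50.3 and 61.1 to 97.5, 83.8 and 83.05 (0.73, adjusted p = 0.00251).

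Genes of arginine and itaconate metabolism fell, though the nitric oxide synthase did not pass. Of 10 tested, 7 fell and 1 rose (median log2 change -0.73). Slc7a2, the arginine importer induced in activated macrophages, stood at 141, 80.02 and 30.01 with LPS and 18.5, 10.9 and 11.9 with fatty acid (-2.30, SE 0.45, adjusted p = 0.00328). Ass1, which regenerates arginine from citrulline, fell from 200.3, 128 and 121 to 59.4, 50.7 and 46.6 (-1.47, adjusted p = 0.000555), and Acod1, the enzyme gene of itaconate synthesis, from 379.6, 335 and 329 to 198, 171 and 136 (-1.06, adjusted p = 0.000556). Gch1 (-0.75), needed for the cofactor of nitric oxide synthase, and the arginase genes Arg1 (-0.72) and Arg2 (-0.52) fell as well. Nos2, the inducible nitric oxide synthase gene, lay at 4.38, 9.57 and 17.3 with LPS and 19.5, 12.3 and 12.8 with fatty acid and did not pass (adjusted p = 0.194; called higher without LPS replicate 3, adjusted p = 0.0155). Odc1, the first enzyme gene of polyamine synthesis, rose from 22.1, 20.4 and 22.4 to 33.4, 33.1 and 31.6 (0.57, adjusted p = 0.000556), to the untreated level of 31.3, 29.1 and 29.4.

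Prostaglandin and leukotriene genes were lower in 6 of 12 tested and higher in 2. Ptgs2, which encodes COX-2, stood at 51.002, 7.67 and 3.21 with LPS and 0.794, 0.344 and 0.549 with fatty acid (-2.997, and -1.96 without LPS replicate 1), and Ptges, the prostaglandin E synthase that acts after it, at 48.2, 33.1 and 23.8 with LPS and 14.8, 10.04 and 9.12 with fatty acid (-1.52, SE 0.23, adjusted p = 0.0012). The synthases of other prostanoids went the other way: Hpgds, of prostaglandin D2, rose from 3.83, 6.15 and 6.28 to 11.9, 9.63 and 12.8 (0.97, adjusted p = 0.00234), and Tbxas1, of thromboxane, from 36.05, 52.0 and 75.7 to 99.9, 109 and 104 (0.98, adjusted p = 0.00544).

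Several matrix-degrading enzymes fell while their inhibitor Timp2 rose. Of 11 tested members 5 fell and 3 rose. Mmp13, a collagenase gene, fell from 119, 88.4 and 71.5 to 22.6, 18.95 and 19.3 (-2.11, SE 0.17, adjusted p = 8.70e-05), Mmp12, a macrophage elastase gene, from 251, 197 and 78.0 to 17.3, 15.99 and 10.9 (-3.35, adjusted p = 0.000286), and Mmp14, a membrane-bound activator of other proteases, from 203, 145 and 124 to 49.1, 45.9 and 46.9 (-1.68, adjusted p = 0.000207). Mmp12 with fatty acid lay below the untreated 126, 132 and 113, whereas Mmp13 and Mmp14 stayed above theirs. Timp2, an inhibitor of these proteases, rose from 2.07, 2.52 and 3.28 to 10.8, 10.4 and 11.01 (1.71, SE 0.11, adjusted p = 3.31e-05), with the untreated libraries at 23.7, 24.98 and 24.97. Mmp19 (0.95, adjusted p = 0.000609), which overlaps Tmem198b, rose too, and so did Mmp27 (0.26), a call that held in 6 of 12 alternative settings, adjusted p up to 0.101. Most stromal markers moved with this group: 5 of 6 tested fell and 0 rose, Col1a1 from 10.03, 4.13 and 3.19 to 0.800, 0.570 and 0.612. The other, Dcn, went up without passing (0.48, adjusted p = 0.0535) and was called higher without LPS replicate 3 (0.63, adjusted p = 0.0171). The summed level of the stromal markers was 25.3 to 55.7 in the LPS libraries and 11.3 to 14.2 in the fatty acid libraries, with Lum at 0. Their part in these changes was not tested.

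Of 15 antimicrobial and acute phase genes tested 9 fell and 2 rose. The rises were Saa1, of serum amyloid A (1.51, adjusted p = 0.00171), and Fpr2 (0.33, adjusted p = 0.0149). The call of Fpr2 held in 8 of 12 alternative settings, adjusted p up to 0.0551. Saa2 was under the filter, at 0.0647, 0.104 and 0.297 with LPS and 1.33, 0.977 and 1.48 with fatty acid. Slpi, a secreted inhibitor of neutrophil proteases, stood at 1388, 151 and 63.2 with LPS and 18.5, 15.4 and 15.6 with fatty acid (-3.77, and -2.50 without LPS replicate 1). Clec4e, which encodes the glycolipid receptor Mincle, fell from 519, 579 and 455 to 102, 169 and 136 (-1.94, adjusted p = 0.000808), Hp, the haptoglobin gene, from 242.2, 220.5 and 194 to 98.3, 87.5 and 66.2 (-1.38, adjusted p = 0.000347), and Orm1, which encodes orosomucoid, from 16.7, 8.61 and 5.65 to 1.49, 1.48 and 1.21 (-2.12, adjusted p = 0.000733). Saa3, a serum amyloid A gene, lay at 27837, 49516 and 14007 with LPS and 14278, 13325 and 12973 with fatty acid and did not pass (adjusted p = 0.16; called lower without LPS replicate 3, adjusted p = 0.0456). Of neutrophil markers 3 of 7 tested fell and 1, Csf3r, rose, and 6 fell without LPS replicate 1, Ltf (-0.53), Ngp (-1.05) and S100a9 (-0.77) passing as well. Their summed level was 187 to 536 with LPS and 145 to 157 with fatty acid, and Ly6g, Elane, Mpo, Retnlg and Cxcr2 stayed under the filter. Their part in these changes was not tested.

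Of S100 genes, which encode small calcium-binding proteins, 5 of 8 fell and 0 rose. S100a4 fell from 118, 114 and 100.4 to 28.4, 30.5 and 21.9 (-2.01, SE 0.15, adjusted p = 4.52e-05), with LPS libraries that were close together, and S100a6 from 76.0, 87.9 and 83.6 to 29.9, 30.1 and 38.5 (-1.31, adjusted p = 0.00123). S100a8 and S100a9, which together form calprotectin, did not behave as a pair: LPS replicate 1 held 372 for S100a8, the highest of its group, and 5.69 for S100a9, the lowest. S100a9 did not pass (0.07), and without LPS replicate 1 both were called lower, at -0.69 and -0.77; the call of S100a8 held in 7 of 12 alternative settings, adjusted p up to 0.109.

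Cholesterol-export genes rose in part; most genes that store or burn fatty acids did not pass. Of 15 genes listed as LXR targets and cholesterol efflux, which include LXR genes themselves, 6 rose and 2 fell (1 without LPS replicate 1). The falls were Nr1h2, which encodes a form of LXR (-0.53, adjusted p = 0.00986), and Srebf1 (-0.40, adjusted p = 0.0463). The call of Nr1h2 held in 11 of 12 alternative settings, adjusted p up to 0.0539, and that of Srebf1 in 5 of 12, adjusted p up to 0.145. Abcg1, an exporter of cholesterol to HDL, rose from 3.49, 4.44 and 5.35 to 18.4, 17.2 and 16.9 (1.78, SE 0.16), Apoe from 757, 558 and 609 to 2004, 1544 and 1790.3 (1.48) and its neighbour Apoc1 from 0.437, 0.379 and 0.230 to 2.97, 3.14 and 2.98 (1.58, adjusted p = 4.83e-05). Abca1, the other main exporter, lay at 59.3, 46.8 and 45.9 with LPS and 58.2, 57.1 and 56.7 with fatty acid and did not pass (adjusted p = 0.367). Neither did Nr1h3, the other LXR gene (0.59, adjusted p = 0.109), though it was called higher without LPS replicate 3 (adjusted p = 0.0248). With TAK242 Apoe was at 585, 617 and 779.5 and Apoc1 at 0.738, 0.393 and 0.531, inside or near the range of LPS alone.

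Of 12 genes of fatty acid oxidation tested 2 rose and 0 fell, with a median log2 change of 0.03 beside 0.06 over all genes. The rises were Cpt1a, the gate of fatty acids into mitochondria, from 28.7, 30.7 and 31.0 to 43.4, 39.5 and 37.9 (0.40, adjusted p = 0.00626), and Acadm, an enzyme gene of beta-oxidation, from 12.3, 13.5 and 13.2 to 16.4, 17.4 and 15.6 (0.32, adjusted p = 0.00997). Of 11 lipid droplet genes 1 rose and 3 fell. Plin2, the coat protein of droplets, lay at 303, 479 and 581 with LPS and 587, 554 and 495 with fatty acid (adjusted p = 0.248). Dgat2, which makes triglyceride, fell from 1.55, 1.66 and 1.07 to 0.236, 0.298 and 0.326 (-0.91, adjusted p = 0.000321), Agpat2, an earlier enzyme gene of the same route, from 14.5, 12.4 and 11.7 to 7.20, 6.81 and 6.59 (-0.81, adjusted p = 0.000351), and Hilpda, an inhibitor of triglyceride breakdown, fell too (-0.67, adjusted p = 0.00389). Soat1, which esterifies cholesterol, rose (0.35, adjusted p = 0.0115). In fatty acid synthesis 2 of 9 rose and 2 fell, beside 21.8% of all genes higher and 15.3% lower. Fads1, a desaturase gene, was at 0.78 and Fasn, the synthase, at -0.51. In cholesterol synthesis and uptake 2 of 19 rose (1 without LPS replicate 1) and 3 fell, among them its main regulator Srebf2 (-0.53, adjusted p = 0.00762). Pparg (0.80, adjusted p = 0.0725), the gene of a nuclear receptor that binds fatty acids, did not pass; it was called higher in a fit of the 6 libraries alone (adjusted p = 0.00775) and with a pseudocount of 0.1 (2.80, adjusted p = 0.00661).

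Among genes named for lipid-associated macrophages the members split, 4 of 14 higher and 2 lower, beside 21.8% of all genes higher and 15.3% lower. Gpnmb rose from 489, 389 and 478 to 867, 789 and 703 (0.80, adjusted p = 0.00618). Cd9 fell from 83.6, 37.8 and 26.3 to 12.5, 12.4 and 11.2 (-1.78, adjusted p = 0.00229), and Lpl, the lipoprotein lipase gene, from 211.02, 200.1 and 159 to 61.8, 67.3 and 62.0 (-1.55, adjusted p = 0.0173, and 0.0551 with no filter). Trem2 (-0.84, adjusted p = 0.168) and Spp1 (-0.22, adjusted p = 0.172) did not pass.

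Genes for uptake of dying cells, immune complexes and modified proteins, receptors in the main, rose in 8 of 16 tested and fell in 2. Of the rises, that of Fcgr1 (1.46, and 0.73 without LPS replicate 1) held in 7 of 12 alternative settings, adjusted p up to 0.113. That of Fcgr3 (0.77, and 0.43 without LPS replicate 1) held in 8 of 12, adjusted p up to 0.102. Fcgr4, an Fc receptor gene, rose from 32.8, 83.1 and 117 to 216, 206 and 200.1 (1.58, SE 0.34, adjusted p = 0.00532). Mertk, a receptor for dying cells, rose from 14.5, 21.8 and 29.3 to 57.9, 56.7 and 59.6 (1.42, adjusted p = 0.000976), above the untreated 25.5, 32.1 and 34.2, and its ligand gene Gas6 from 5.99, 9.76 and 13.6 to 18.6, 18.8 and 17.8 (0.91, adjusted p = 0.00666), far below the untreated 307, 358 and 333. Cd5l, a secreted scavenger protein of tissue macrophages, stood at 77.9, 70.6 and 90.6 untreated, 1.17, 2.01 and 2.95 with LPS and 24.3, 24.5 and 25.3 with fatty acid (3.12). The mannose receptor gene Mrc1 rose from 3.82, 6.14 and 8.39 to 13.1, 17.3 and 15.9 (1.25, adjusted p = 0.00171) against 252, 325 and 305 untreated, so it stayed far below the untreated level. Cd36, a fatty acid and lipoprotein receptor gene, fell from 642, 326 and 312 to 231, 221 and 241 (-0.80; -0.46 without LPS replicate 1; adjusted p = 0.0503 without fatty acid replicate 2 and 0.0776 in a fit of the 6 libraries alone), and Clec7a, the beta-glucan receptor gene, fell as well (-1.08; -0.62 without LPS replicate 1), a call that held in 8 of 12 alternative settings, adjusted p up to 0.084.

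Complement genes rose in 4 of 11 and fell in 0 (1 without LPS replicate 1): C1qb from 60.2, 152 and 197 to 323, 317 and 294 (1.35; 0.84 without LPS replicate 1; adjusted p = 0.0565 in a fit of the 6 libraries alone), and C3ar1, the receptor gene of the fragment C3a, from 7.55, 11.8 and 15.3 to 22.4, 20.3 and 18.8 (0.83, adjusted p = 0.0077). Of 26 lysosome genes 7 rose and 5 fell, not far from the 21.8% higher and 15.3% lower of all genes. Lgmn, which encodes legumain, a lysosomal protease, stood at 752, 696 and 757 untreated, 125, 248 and 395 with LPS and 746, 736 and 733 with fatty acid (1.67, adjusted p = 0.003), and Ctss, the cathepsin S gene, rose from 1452, 1845 and 2342 to 3391, 3287 and 3091 (0.82, adjusted p = 0.00251). Neu1, a sialidase gene, fell from 23.6, 23.04 and 18.4 to 13.2, 10.2 and 9.79 (-0.91, adjusted p = 0.000958), and Gaa, the acid glucosidase gene, fell too (-0.70, adjusted p = 0.00779). Of 7 alternative activation genes tested 4 rose and 1 fell (2 without LPS replicate 1), Il4ra, Mrc1 and Arg1 among them as given above. Cp, which encodes the iron oxidase ceruloplasmin, rose from 20.3, 35.7 and 34.3 to 102, 92.5 and 101.04 (1.72, SE 0.18, adjusted p = 0.000286), the only rise among 9 iron genes, of which Ftl1 fell (-0.54; adjusted p = 0.139 with no filter).

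Genes of protein synthesis and folding were lower. Of 20 cytosolic ribosomal protein genes 17 fell and 0 rose, against 15.3% of all genes lower, with a median log2 change of -0.48 and 14 calls that held whichever library was left out. Rpl10a stood at 175, 152 and 143 with LPS and 70.5, 81.0 and 66.3 with fatty acid (-1.10, SE 0.14, adjusted p = 0.000531), Rpl13 at 349, 324 and 288 with LPS and 176, 160.5 and 143 with fatty acid (-0.999, adjusted p = 0.000448), and Rpl8 at 328, 308 and 278 with LPS and 179.9, 172 and 150.4 with fatty acid (-0.86, adjusted p = 0.000556). For these 3 genes the untreated libraries were higher still, with Rpl10a at 337, 317 and 298, and those with TAK242 lay between fatty acid and LPS alone for Rpl10a at 116, 139.9 and 95.6. Without LPS replicate 1 the falls numbered 16, and after median-ratio scaling, which gave 19.9% of all genes lower, 18. Ribosomal protein genes have many near-identical copies in the genome, and how reads were shared among them is not stated.

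Of 19 genes of the ER stress list 10 fell and 1 rose. Sdf2l1, an ER chaperone partner, fell from 18.9, 19.99 and 14.9 to 7.12, 6.07 and 5.77 (-1.36, SE 0.14, adjusted p = 0.000283), Creld2 from 43.4, 42.0 and 35.0 to 24.3, 21.9 and 18.8 (-0.86, adjusted p = 0.00133), and the main ER chaperone gene Hspa5 from 218, 257 and 210.7 to 159, 132 and 160.5 (-0.60, adjusted p = 0.00545). The rise was Ddit3, which encodes the stress factor CHOP, by 0.94 (0.49 without LPS replicate 1), a call that held in 6 of 12 alternative settings, adjusted p up to 0.119. It overlaps Mars.

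Glycolysis and hypoxia genes fell in 13 of 24 and rose in 1 (median log2 change -0.40), against 15.3% of all genes lower. Without LPS replicate 1 the falls numbered 10 (median -0.35), and 9 calls of the list held whichever library was left out. Slc2a1, the glucose transporter gene, fell from 41.8, 27.8 and 22.7 to 14.7, 13.5 and 12.04 (-1.10, SE 0.22, adjusted p = 0.00351), Pfkl, a subunit gene of phosphofructokinase, from 61.8, 54.1 and 44.9 to 31.2, 28.6 and 25.6 (-0.88, adjusted p = 0.00258), and Pgam1 from 119.9, 108 and 99.0 to 70.3, 70.5 and 66.1 (-0.65, adjusted p = 0.00099). The rise was Pfkfb4 (0.53, adjusted p = 0.00107). Antioxidant genes of the NRF2 list fell in 7 of 12 and rose in 1 (-1.13, and -0.64 without LPS replicate 1). Slc7a11, the cystine importer gene, stood at 60.02, 9.76 and 4.64 with LPS and 1.17, 0.862 and 0.756 with fatty acid (-3.01, adjusted p = 0.00547), Blvrb, a biliverdin reductase gene, at 437, 285 and 261 with LPS and 193, 140.1 and 125 with fatty acid (-1.09, adjusted p = 0.00268), and Gsr, the glutathione reductase gene, at 137, 89.5 and 76.1 with LPS and 57.0, 52.7 and 52.0 with fatty acid (-0.85, adjusted p = 0.00446). LPS replicate 1 was far above the other LPS libraries for Slc7a11 and for Prdx1, a peroxiredoxin gene, at 5797, 2054 and 1749 against 1159, 1118 and 991 (-1.34; -0.80 without it; adjusted p = 0.0683 in a fit of the 6 libraries alone). Hmox1, the heme oxygenase gene and a classic NRF2 target, lay at 2019, 1685 and 1949.6 with LPS and 1966, 1654 and 1573 with fatty acid and did not pass (adjusted p = 0.487).

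Other lists changed little. Of 20 respiratory chain genes 3 fell and 0 rose, of 18 mitosis genes 3 fell and 1 rose, Tpx2 (0.55; 0.30 and adjusted p = 0.0709 without LPS replicate 1), a call that held in 7 of 12 alternative settings, adjusted p up to 0.117, and of 4 metallothionein and zinc genes 0 passed. Of 18 DNA replication genes 2 rose and 2 fell, but 9 fell without LPS replicate 1, which was the lowest LPS library in 17 of the 18, Mcm2 for example at 2.02, 5.61 and 7.08 against 4.18, 3.89 and 3.16. Pcna, a polymerase clamp gene, rose from 69.4, 86.4 and 102 to 127, 127 and 119.6 (0.55, adjusted p = 0.00538), and Rrm2, a subunit gene of ribonucleotide reductase, fell from 1.99, 5.004 and 4.01 to 1.08, 1.25 and 0.911 (-1.11, adjusted p = 0.00825), both far below their untreated levels of 362, 334 and 329.9 and 53.3, 57.7 and 55.9.

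**Figure D5:**
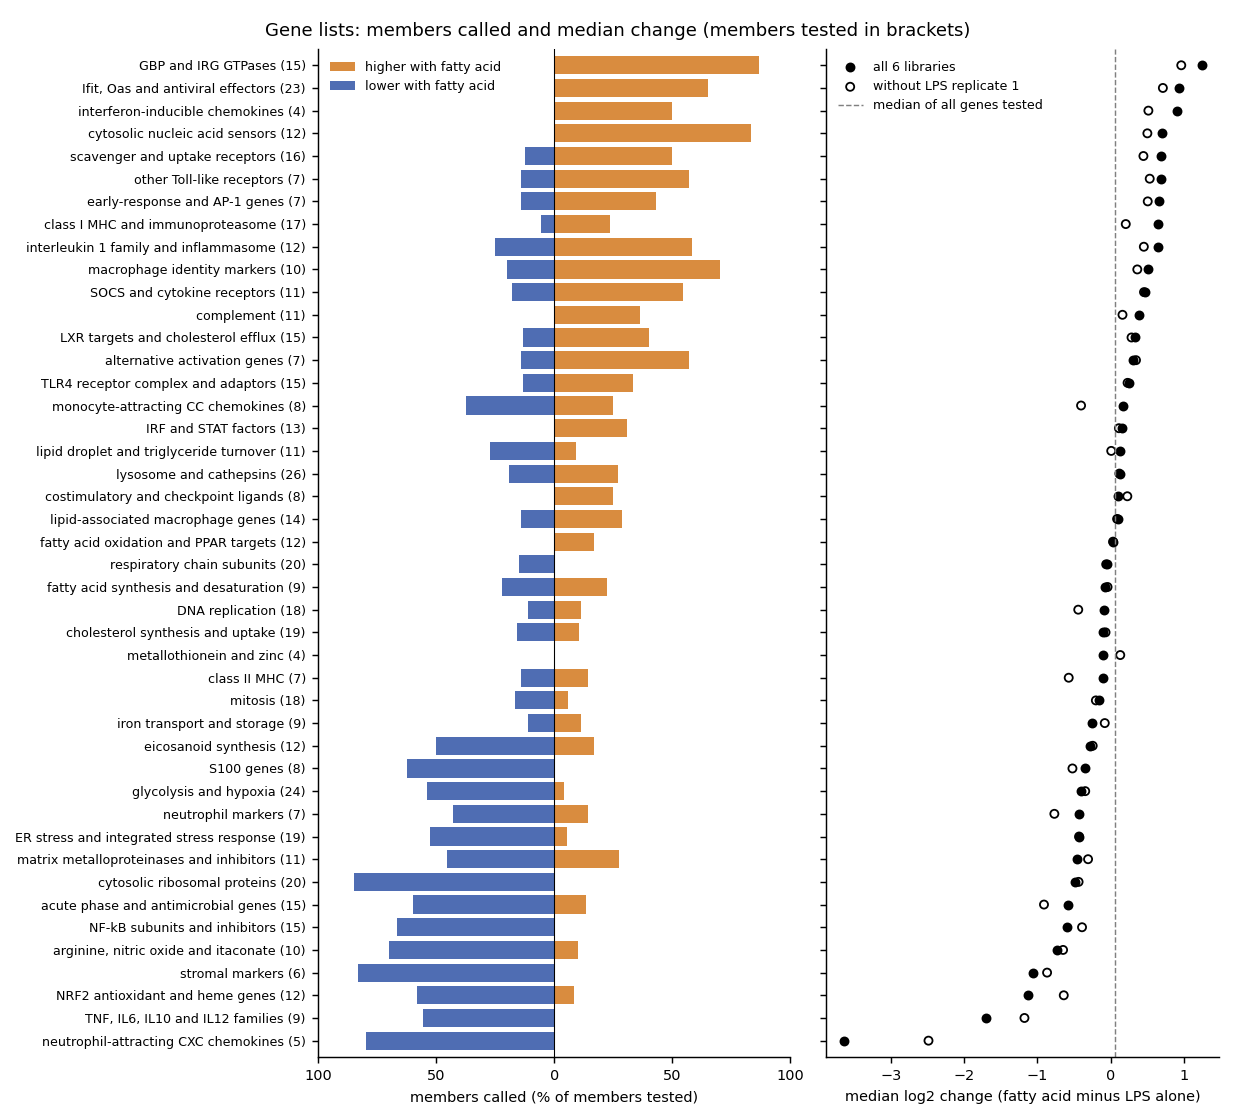
For each gene list with at least 4 tested members, the left panel gives the share of tested members called higher (orange) or lower (blue) with fatty acid, and the right panel the median log2 change (fatty acid minus LPS alone) with all 6 libraries (filled) and without LPS replicate 1 (open); the dashed line is the median of all genes, 0.06. GBP and IRG GTPases lead the rises (13 of 15 tested), and the list of neutrophil-attracting CXC chemokines, which includes Pf4 (4 of 5 lower), has the lowest median, -3.64.

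Of the remaining genes with the largest changes, Frmd4b, a scaffold protein gene, rose from 2.28, 8.24 and 20.1 to 54.9, 49.3 and 42.1 (2.52, adjusted p = 0.00353), above the untreated 30.3, 35.8 and 25.3. Cmpk2, a mitochondrial nucleotide kinase gene induced by interferon, rose by a log2 change of 2.19 and Ly6a, which encodes Sca-1, of 2.18. Acpp, a phosphatase gene, fell from 118, 16.5 and 6.96 to 0.640, 0.493 and 0.415 (-4.08, adjusted p = 0.0022), and Serpinb2, a protease inhibitor gene of activated macrophages, from 79.4, 15.9 and 9.88 to 2.23, 1.37 and 1.85 (-3.13, adjusted p = 0.00262). Serf1 fell with a small spread, from 105, 70.0 and 56.4 to 10.6, 8.71 and 7.89 (-2.92, SE 0.22, adjusted p = 4.83e-05). Cav1, the caveolin gene, fell as well (-3.06; -1.92 without LPS replicate 1; adjusted p = 0.0515 in a fit of the 6 libraries alone). Of the 15 largest rises, 4 overlap another gene, from which their reads cannot be told apart. Gbp4 is given above with its neighbours. Mrnip, at 0.232, 0.167 and 0.181 with LPS and 68.3, 57.9 and 70.7 with fatty acid and with TAK242 at 9.28, 0.901 and 93.1, overlaps Sqstm1, Olfr56 overlaps Ifi47, and Pltp (2.45) overlaps Ctsa.

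The cells carried macrophage markers in both groups. Of 10 tested 7 rose and 2 fell, Itgam, the CD11b gene, from 343, 457 and 484 to 675, 655 and 647 (0.64, adjusted p = 0.0027) and Csf1r, the receptor gene of the macrophage growth factor, from 352, 333 and 312 to 258, 247 and 226 (-0.45, adjusted p = 0.00277). The summed level of the 12 markers was 10713 to 10872 with LPS and 9616 to 10696 with fatty acid. Markers of other cells were low: the 9 dendritic cell markers summed to at most 1.196 and the 8 of mast cells and basophils to at most 1.35 in these 6 libraries, with 0 tested in either list. Among 10 lymphocyte markers Cd4, which macrophages can also express, rose from 0.134, 0.300 and 0.421 to 1.04, 0.863 and 1.07 (0.64), while Cd3e, Cd3g, Ncr1 and Gzma were at 0. Osteoclast markers were called in 3 of 3 tested, with Acp5 falling from 111, 95.1 and 73.5 to 55.2, 52.5 and 49.4 (-0.80, adjusted p = 0.00308), Ctsk falling and Atp6v0d2 rising, a call (0.30) that held in 4 of 12 alternative settings, adjusted p up to 0.146. Of the erythroid and platelet list Ppbp alone was tested.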

How the data were processed

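The series measured RNA of mouse macrophages by sequencing. Per the submitters' processing notes, base calls came from CASAVA 1.8.2, reads were checked with FastQC 0.11.5, trimmed with Trim Galore 0.4.1 and aligned with HISAT2 2.0.5; the role of the mm10 and mm9 builds named there, the strand setting and the quantification are not given in the sources used here. The deposited values per gene are of an unnamed unit, so read depth and its counting error are unknown. Of 50681 entries 36, of 17 gene IDs, had displaced numbers and were left out. Gene coordinates of 46773 entries equal GRCm38 (GENCODE M21).

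Genes at 1 or more in at least 3 of the 12 libraries of the table were tested (10476). Log2(value + 1) was fitted with limma 3.58.1 (R 4.3.3) over all 12 libraries with a variance trend, moderated two-sided tests and Benjamini-Hochberg adjustment over all genes. On the log2(value + 1) scale the change of low genes is understated. On simulated data with 10476 genes, the fit of this comparison recovered 87% of 2-fold and 95% of 4-fold changes.

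The genes named are the 15 largest rises and the 15 largest falls (called, groups not overlapping, mean of at least 10 in the higher group, no unnamed gene model) and members of 49 lists. The comparison, the members and the lists were chosen with earlier results of these data known. Alternatives were the filter, pseudocount, scaling, libraries in the fit, library weights, a replicate block and leaving out each library. Values of some genes are not reported here.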

Additional observations from a re-analysis of the deposited data

How the results depend on the processing

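With all 6 libraries 3893 genes changed, 598 by at least 2-fold. Leaving out 1 library at a time gave 2922 to 4089 changed genes, 1693 to 2404 higher and 1109 to 1685 lower. Those of at least 2-fold numbered 380 to 832, with the lowest count without LPS replicate 1. A pseudocount of 0.1 gave 1088 genes of at least 2-fold. Library weights gave 5872 changed genes and 2499 lower, but their estimation did not converge. The counts under the other settings lay within 1.5 times the first: 3847 changed with no filter, 2732 with a minimum of 5, 2833 in a fit of the 6 libraries alone and 4168 with median-ratio scaling (2084 higher and 2084 lower). The causes of these differences were not tested.

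Of 290 named genes called, 177 were called under all 13 settings and 26 under the 12 run for them, since a minimum of 5 left them untested. In the settings run 0 changed sign while called. With a library left out this was fixed in advance for genes whose groups do not overlap. Calls were lost in 68 genes in a fit of the 6 libraries alone, in 51 with no filter, in 39 to 48 without a fatty acid library and in 11 to 23 without an LPS library. Same-numbered libraries did not deviate together (correlations of deviations -0.013, 0.051 and 0.0067), so the numbers are not taken to pair the samples. With the replicate number as a block, 3716 genes changed, 600 by at least 2-fold, and 11 named calls were lost. Depth limits cannot be given, since the files hold no counts.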

Other observations

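Some genes took very different values among libraries of the same group. Junb, an AP-1 subunit gene, stood at 1.48, 1.56 and 21.6 with LPS, 14.99, 2.16 and 23.9 with fatty acid and 29.5, 31.2 and 16.1 with TAK242. Tk1, the thymidine kinase gene, stood at 2.69, 4.35 and 23.7 with LPS and 28.4, 3.47 and 29.0 with fatty acid. Neither was called, with adjusted p = 0.369 for Junb and 0.472 for Tk1. Within the fatty acid group replicate 2 was the low library in both, and it was also the low library for Tgtp1. Junb overlaps Prdx2 and Tk1 overlaps Afmid in the annotation.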
